A study of Mus musculus with 42 samples.

Results

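Gene expression in embryoid bodies around day 2 of differentiation, sampled at 42, 48 and 54 h, was compared with expression around day 3, sampled at 66, 72 and 78 h. Every library of these 6 time points was used, which gave 6 libraries in the earlier window and 6 in the later window, 12 of the 42 libraries of the course, and all 14296 genes of the files were tested. The cells were W9.5 mouse embryonic stem (ES) cells of low passage on the 129X1/SvJ background, which formed embryoid bodies, aggregates that hold several differentiating lineages, after withdrawal of LIF, the cytokine that keeps mouse ES cells undifferentiated. No lineage-directing factor was given, and the cells, strain and LIF withdrawal were shared by all 12 libraries, so that by the labels the groups differed in time alone. Stranded libraries of poly-A RNA were sequenced at 21 time points, every 6 h from 0 to 120 h, in biological duplicate cultures named A and B. A window therefore held 2 cultures over 3 consecutive times and not 6 independent samples.

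At this stage embryoid bodies are known to pass from a state like the epiblast, the pluripotent tissue of the implanted embryo, towards a state like the primitive streak, through which mesoderm and endoderm form. Wnt, BMP, Nodal and FGF signals induce the streak, which is marked by the T-box transcription factors T (Brachyury) and Eomes. Wnt ligands bind Frizzled and LRP receptors and stabilize beta-catenin, which acts with TCF and LEF proteins on targets that include several inhibitors of the pathway itself. Markers in the files fitted embryoid bodies at this stage, with the epiblast genes Fgf5, Otx2, Pou3f1 and Dnmt3b at 1631 reads or more in each of the 12 libraries, Pou5f1 at 14149 or more, and T at 5 reads or more in the earlier and 137 or more in the later libraries.

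The 12 libraries held between 20019715 and 40466606 counted reads, with a median of 28754817. Values are log2 CPM, the reads of a gene scaled to the size of the library, and 3 reads corresponded to between 0.0763 and 0.135 CPM. Differences are later minus earlier window means on this log2 scale, with the standard error (SE) of the fit. Differential expression was called with limma at a Benjamini-Hochberg adjusted p below 0.0001, and the p-values measured the spread between the duplicate libraries of a time point. The duplicates differed by a median SD of between 0.075 (54 h) and 0.194 (42 h) on the log2 scale. In bulk RNA a lower value can mean fewer cells of a type or less RNA per cell, and these cannot be told apart.

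Between the windows 2391 genes rose, 16.7% of those tested, and 1815 fell, 12.7%. Changes of at least 2-fold were mostly rises, with 1227 genes higher (8.58%) and 255 lower (1.78%). The genes that rose at least 2-fold started low, with a median level of 0.70 log2 CPM in the earlier window and 2.27 in the later window. Those that fell at least 2-fold went from a median of 3.55 to 2.07 log2 CPM, and the medians of all genes were 4.29 and 4.37. Of the 1227 genes called at least 2-fold higher, 442 had an earlier mean below 0 log2 CPM. The authors kept genes over 1 CPM in at least 2 libraries of the whole course. A gene near the floor in the earlier window could thus enter through later libraries. Choosing genes by their rise itself favours a low earlier level. How far the filter shaped the excess of 2-fold rises was not tested. Over all genes the median difference was 0.005. All 6 later libraries lay above all 6 earlier libraries for 2013 genes (14.1%) and below them for 1589 genes (11.1%).

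**Figure D1:**
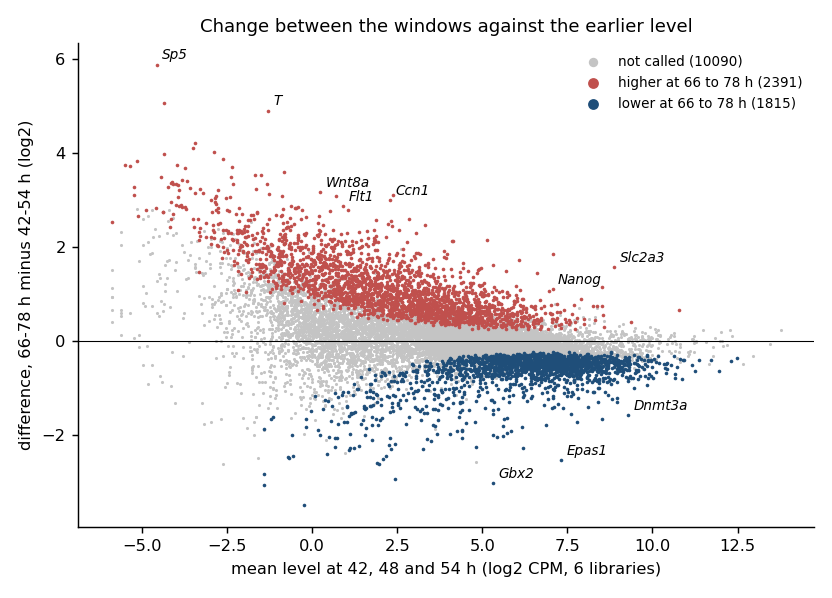
Each point is 1 of 14296 genes, with its mean level in the 6 earlier libraries (log2 CPM) on the horizontal axis and its later minus earlier difference (log2) on the vertical axis; red points rose (2391), blue points fell (1815) and grey points were not called. The largest rises sat among genes with low earlier levels, such as Sp5 and T. Genes that fell at least 2-fold had a median earlier level of 3.55 log2 CPM, above the 0.70 of those that rose but below the 4.29 of all genes. Gbx2, Epas1 and Dnmt3a are labelled among the falls.

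The cultures were also compared. All 4206 called genes changed with the same sign in culture A and in culture B. The calls used the mean of both cultures, so the selection itself favoured this outcome. By limma 0 genes differed between the cultures in their change, with 385 genes (2.69%) at an unadjusted p below 0.05 and 0 also with voom weights. The lack of such calls does not show that the cultures agreed. When each culture was tested alone, with 3 libraries against 3, 0 genes passed the threshold in either, and at an adjusted p below 0.05 culture A had 2811 higher and 2896 lower genes and culture B 1238 and 642. When the 12 libraries alone were fitted with the window as the only factor, so that change inside a window counted as error, 519 genes were higher and 310 lower. Without the normalization factors of the authors, which were 0.884 to 0.978 in the earlier and 0.991 to 1.11 in the later libraries, the median difference moved to 0.165 and 78.53% of the calls were rises, against 56.85% in the deposited values.

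Among transcription factors of the primitive streak, T, Sp5 and Evx1 went from few reads to clear expression. Of 15 in the files, 6 rose and 1 fell, with a median difference of 1.39 against 0.005 for all genes, and 6 lay above all earlier libraries in every later library. Of all genes 16.7% rose, 12.7% fell and 14.1% lay above all earlier libraries. The counts of this and the following lists are to be read beside these shares. T, which is required for posterior mesoderm, was counted with 5 to 36 reads in the earlier libraries and 137 to 780 in the later ones. Its level was -2.59, -1.45 and -0.11 log2 CPM (lowest, median, highest) at 42 to 54 h and 2.36, 3.61 and 4.996 at 66 to 78 h. The groups did not overlap, and T rose by 4.90 ± 0.26 (adjusted p = 1.84e-14). It climbed at every step, by 2.22 from 42 to 54 h and by 2.38 from 66 to 78 h, and these changes inside the windows did not pass the threshold (adjusted p = 0.000665 and 0.00131).

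Sp5, a zinc finger factor and direct target of Wnt signalling, was close to silent in the earlier window, with 0 to 3 reads a library and 3 libraries at 0. In the later window it had 32 to 162 reads and levels of 0.23, 1.01 and 2.73 log2 CPM. Pooled over the window, its CPM was 66.8 times that of the earlier window, with a 95% exact interval from 33.6 to 156 that covers counting error only. The fitted rise was 5.89 ± 0.55 (adjusted p = 7.77e-10) and depended on the offset added to each count. Evx1, a homeobox gene of the posterior streak, went from 0 to 11 reads to between 26 and 108 and rose by 4.21 ± 0.50 (adjusted p = 5.65e-08), with a pooled ratio of 16.2 (interval 10.5 to 26.2).

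Eomes, which is needed for endoderm and for the exit of cells from the epiblast, was already present in the earlier window at 3.84, 3.97 and 4.45 log2 CPM and reached 5.04, 5.60 and 6.28. It rose by 1.54 ± 0.20 (adjusted p = 3.26e-07) without overlap. Sp8, a relative of Sp5, rose by 1.35 ± 0.18 (adjusted p = 3.93e-07). Snai1, a repressor of E-cadherin that drives cells out of the epithelium, rose by 1.45 ± 0.27 (adjusted p = 4.15e-05) with overlap, and this call ended when any of 8 of the 12 libraries was left out. Mixl1, a homeobox gene of streak and endoderm, had a difference of 1.32 ± 0.31 (adjusted p = 0.000696), which did not pass, although its groups did not overlap. Foxa2, a marker of anterior streak and endoderm, had 1 to 12 and then 4 to 27 reads (difference 1.57 ± 0.40, adjusted p = 0.00131). The gene of the list that fell was Cdx4, a caudal homeobox gene, with a drop from 9 to 42 reads a library to 1 to 10. It fell by 2.46 (SE 0.35, adjusted p = 9.99e-07), with overlap. Mesp1, Tbx6 and Msgn1, markers of mesoderm that leaves the streak, were not among the genes of the files and were not analysed here.

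The 250 bases before the start sites of Sp5 and T (RefSeq, GRCm38.p6) are shown because these factors had the largest rises of the list, with the TCF/LEF letters CTTTGAT, searched on both strands, in capitals. Sp5 lies at chr2:70474923-70477729 and T at chr17:8434423-8442496, both on the plus strand, and the printed stretches are chr2:70474673-70474922 and chr17:8434173-8434422.
Sp5: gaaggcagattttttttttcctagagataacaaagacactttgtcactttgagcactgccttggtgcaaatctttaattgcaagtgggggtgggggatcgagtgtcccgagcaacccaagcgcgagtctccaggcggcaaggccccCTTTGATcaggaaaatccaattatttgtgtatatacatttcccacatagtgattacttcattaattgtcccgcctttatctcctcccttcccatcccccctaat
T: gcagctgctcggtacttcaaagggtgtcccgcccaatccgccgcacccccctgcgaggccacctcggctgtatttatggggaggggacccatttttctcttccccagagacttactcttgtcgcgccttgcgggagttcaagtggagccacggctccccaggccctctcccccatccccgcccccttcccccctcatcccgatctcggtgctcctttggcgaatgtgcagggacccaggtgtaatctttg
The letters occurred once before Sp5, starting 104 bases from its start site, and not in the stretch before T. Of 32851 RefSeq start sites, 3.21% held them in a stretch of this length. Among the 12 streak genes with an entry, Sp5 was the only match, and it was also the only match among 14 genes of the Wnt target list.

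**Figure D2:**
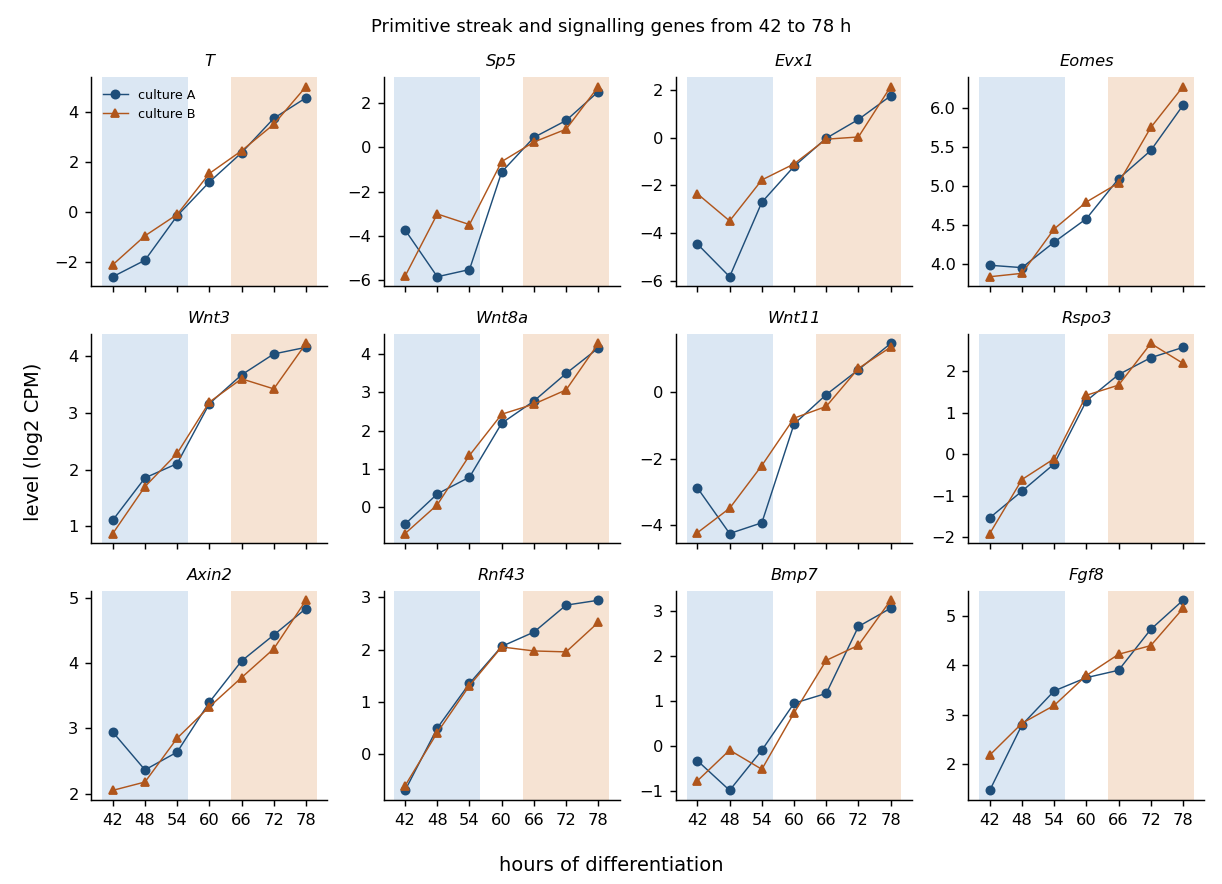
Levels (log2 CPM) of 12 streak and signalling genes at 42 to 78 h, with culture A as circles and culture B as triangles; the earlier window is shaded blue, the later window orange, and the 60 h libraries lie between. Every panel ends higher than it begins, and T and Wnt8a climb in both cultures at every step.

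Wnt signalling components were also called, mostly higher. Of 29 ligands, receptors and secretion genes, 13 rose and 2 fell (median difference 0.51), and of 21 targets and inhibitors 8 rose and 3 fell (median 0.21). Summed CPM did not follow these counts. For the ligand list it was 613 to 835 in the earlier and 683 to 852 in the later libraries, with overlap. For targets and inhibitors it was lower later, 1822 to 2000 and then 1618 to 1833, with slight overlap. Wnt3, the ligand that starts the streak in the embryo, had levels of 0.87, 1.77 and 2.29 log2 CPM in the earlier libraries and 3.42, 3.85 and 4.22 in the later ones. It rose by 2.20 ± 0.24 (adjusted p = 1.63e-08), and 69.2% of this difference was already reached at 60 h. Wnt8a, another ligand of the streak, went from -0.69, 0.21 and 1.35 to 2.69, 3.28 and 4.28 log2 CPM, a rise of 3.17 ± 0.18 (adjusted p = 6.34e-14). Neither ligand overlapped between the windows.

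Wnt11, a ligand of the beta-catenin-independent branch that acts in cell movement, was counted with 1 to 8 reads in the earlier libraries and 20 to 62 in the later ones, a rise of 4.12 ± 0.32 (adjusted p = 2.53e-11). It had fallen by 2.23 (adjusted p = 1.3e-06) from the 18 to 30 h window. Rspo3, which amplifies Wnt signals by removing the receptor-degrading ligases, rose by 3.10 ± 0.24 and Wnt4 by 2.01 ± 0.16. Wls, which carries all Wnt ligands to the cell surface, rose from 2.34, 3.04 and 3.64 to 4.86, 5.49 and 5.71 log2 CPM, by 2.31 ± 0.10 (adjusted p = 2.98e-16). Wnt5a fell by 1.37 (SE 0.25, adjusted p = 2.86e-05), a call that ended without any of 8 libraries. Fzd7, the most studied Frizzled receptor of ES cells, fell by 0.43 (SE 0.06, adjusted p = 3.65e-07), and this call ended without the normalization factors.

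Inhibitors that Wnt signalling itself induces were among the targets that rose. Axin2, a scaffold of the complex that degrades beta-catenin and a standard Wnt reporter, went from 2.05, 2.50 and 2.94 to 3.78, 4.33 and 4.97 log2 CPM. Its rise of 1.88 ± 0.15 (adjusted p = 2.84e-11) followed a fall of 1.29 (adjusted p = 2.74e-08) from the 18 to 30 h window. Rnf43, a ligase that removes Frizzled receptors, rose by 2.05 ± 0.25, Nkd1, which dampens Dishevelled, by 1.67 ± 0.16, and Frzb, a secreted Wnt antagonist, by 3.16 ± 0.37 from 1 to 5 reads. Not all targets moved this way. Lef1, a partner of beta-catenin on DNA, went from 6.71, 6.88 and 7.02 down to 4.81, 5.08 and 5.39 log2 CPM, a fall of 1.78 (SE 0.16, adjusted p = 5.68e-10), and Ccnd1, cyclin D1, fell by 0.69. Notum, which inactivates Wnt ligands, had a difference of -1.14 ± 0.22 (adjusted p = 5.72e-05), which was lost when any of the 12 libraries was left out. Dkk1, a secreted inhibitor of LRP receptors, stayed at 0 to 5 reads in all 12 libraries (adjusted p = 0.408).

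BMP pathway genes also rose more often than they fell, with 10 of 22 higher and 1 lower (median 0.67). Bmp4, the ligand required for mesoderm, did not pass (difference -0.18 ± 0.16, adjusted p = 0.328) and was at 3.33 to 3.82 log2 CPM in the earlier and 3.15 to 3.45 in the later libraries. Bmp7, a related ligand, went from -0.98, -0.42 and -0.09 to 1.17, 2.45 and 3.24 log2 CPM and rose by 2.84 ± 0.14 (adjusted p = 6.45e-15). Several genes known to respond to BMP rose. Id1, an inhibitor of bHLH factors, rose by 1.40 ± 0.09, Id3 by 1.23 ± 0.13 and Id2 by 0.57 ± 0.07, and these 3 separated the windows without overlap. Smad6, an inhibitory SMAD of the BMP branch, rose by 1.75 ± 0.16, and Msx2, a homeobox target, by 2.07 ± 0.26 with overlap, a call that ended with voom weights (limma adjusted p = 0.00271) and with log2(CPM + 1) (0.000263). Smad7, which inhibits both the BMP and Nodal branches, fell by 0.73 (SE 0.10).

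Nodal pathway genes were called in both directions, with 3 of 19 genes higher and 5 lower (median -0.09), against 16.7% and 12.7% of all genes. Nodal itself did not pass, with a difference of 0.29 ± 0.11 (adjusted p = 0.0299). Gdf3, a TGF-beta family ligand of pluripotent cells, fell by 1.14 (SE 0.11), and Smad2, a signal transducer of the branch, by 0.52 (SE 0.06). Furin, a protease that activates the Nodal precursor, rose by 1.10 ± 0.12. Lefty2, a Nodal antagonist and target, had a difference of -0.52 ± 0.14 (adjusted p = 0.00253) and Cfc1, a Nodal co-receptor, one of 1.91 ± 0.42 at 2 to 27 reads (adjusted p = 0.000297), and neither passed. Without the normalization factors 3 of these genes, in place of 5, were called lower.

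The FGF pathway split between its ligands. Fgf8, the ligand of the streak, went from 1.46, 2.81 and 3.48 to 3.90, 4.56 and 5.32 log2 CPM, a rise of 1.97 ± 0.20 (adjusted p = 3.88e-09). Fgf4, the autocrine ligand of ES cells, fell from 7.74, 8.22 and 8.48 to 6.32, 6.58 and 7.22, by 1.40 (SE 0.06, adjusted p = 1.68e-16). In neither gene did the windows overlap. Fgf5, the epiblast ligand, did not pass, with a difference of 0.03 ± 0.10 (adjusted p = 0.823) after a rise of 3.32 from the 18 to 30 h window. Of the genes known to respond to ERK, Etv4, an ETS factor, fell by 1.91 (SE 0.21), Spry4, a feedback inhibitor, by 1.36 (SE 0.12) and Dusp6, an ERK phosphatase, by 0.75 (SE 0.07). In all, 5 of 22 genes rose and 8 fell (median -0.16), and Fgfr3 was the receptor with the largest rise, 1.79 ± 0.24, a call that ended with voom weights (limma adjusted p = 0.000151).

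Among retinoic acid and Notch genes more were called higher than lower. Of 16 retinoic acid genes 6 rose and 2 fell (median 0.77), and of 16 Notch genes 4 rose and 1 fell (median 0.48). Of all genes 16.7% rose and 12.7% fell, and the 5 Notch calls were near the share of all genes called, 29.4%. Summed CPM over the lists did not rise. For retinoic acid it was 385 to 465 in the earlier and 255 to 355 in the later libraries. For Notch it was 540 to 662 and then 453 to 619. Cyp26a1, which degrades retinoic acid and protects the streak from it, went from 0 to 3 reads to between 8 and 32 and rose by 3.22 ± 0.44 (adjusted p = 4.99e-07). Crabp2, which carries retinoic acid to the nucleus, rose by 2.15 ± 0.13, and Dhrs3, which returns retinaldehyde to retinol, by 1.49 ± 0.10. Rarg, a retinoic acid receptor, fell by 0.84 (SE 0.10), and without the normalization factors 1 gene of the list was called lower. Rbpj, the DNA-binding partner of Notch, fell by 1.08 (SE 0.07), while the target genes Nrarp and Hes1 rose by 0.99 ± 0.10 and 0.59 ± 0.08. Hox genes were few, with 6 entries in the files and 1 call, a fall of Hoxd13 by 2.08 (SE 0.33), from 32 to 76 reads to 2 to 24.

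Pluripotency factors were called in both directions. Of 14 core pluripotency genes 1 rose and 7 fell (median -0.56), and of 14 naive pluripotency genes 0 rose and 5 fell (median -0.48). The gene that rose was Nanog, a homeobox factor of naive cells and of the posterior epiblast. Its level was 6.95, 7.03 and 7.36 log2 CPM in the earlier libraries and 7.86, 8.26 and 8.33 in the later ones, a rise of 1.11 ± 0.07 (adjusted p = 5.07e-13) without overlap. From the 18 to 30 h window Nanog had fallen by 1.07 (adjusted p = 5.24e-13), so that the earlier window was a low point in its course. Only 19.2% of its rise was reached at 60 h.

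Pou5f1 (Oct4), the factor common to all pluripotent states, did not pass. It was at 9.79, 10.04 and 10.51 log2 CPM and then at 9.31, 9.58 and 10.15, with a difference of -0.40 ± 0.10 (adjusted p = 0.00134) and overlapping groups. Sox2, its partner on DNA, fell by 0.65 (SE 0.06, adjusted p = 5.54e-10), Utf1 by 1.29 (SE 0.13) and Dppa2, a chromatin factor of pluripotent cells, by 1.40 (SE 0.17). Among naive genes Nr0b1 fell by 1.55 (SE 0.14), Zfp42 (Rex1) by 0.97 (SE 0.10) and Esrrb by 0.79 (SE 0.12). Zfp42 had completed 90.5% and Esrrb 92.3% of this fall by 60 h. Klf4 was just short of the threshold, with a difference of -0.60 ± 0.12 (adjusted p = 0.000101), and passed with the replicate block (adjusted p = 6.34e-05). The naive genes called lower numbered 3 without the normalization factors and also with voom weights.

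Of 18 genes of the formative and primed epiblast 9 fell and 2 rose (median -0.47). In the 24 h before, from the 18 to 30 h window to the 42 to 54 h window, 14 of these 18 had risen and 0 had fallen, against 14% and 9.25% of all genes. These comparisons share the 42 to 54 h libraries. Foxd3, a repressor that guards the exit from pluripotency, went from 5.23, 5.85 and 6.07 to 2.60, 3.65 and 4.68 log2 CPM and fell by 1.96 (SE 0.21, adjusted p = 7.68e-09). Pou3f1 (Oct6) fell by 1.03 (SE 0.10) after a rise of 1.71. Otx2, which opens epiblast enhancers and later patterns the head, fell from 7.16, 7.36 and 7.49 to 6.66, 6.80 and 6.94, by 0.54 (SE 0.10, adjusted p = 3.63e-05), and its call ended when any of 8 libraries was left out or when no normalization factors were used. Fst, a secreted activin antagonist, rose by 1.07 ± 0.19, a call that was lost without any of 7 libraries.

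**Figure D3:**
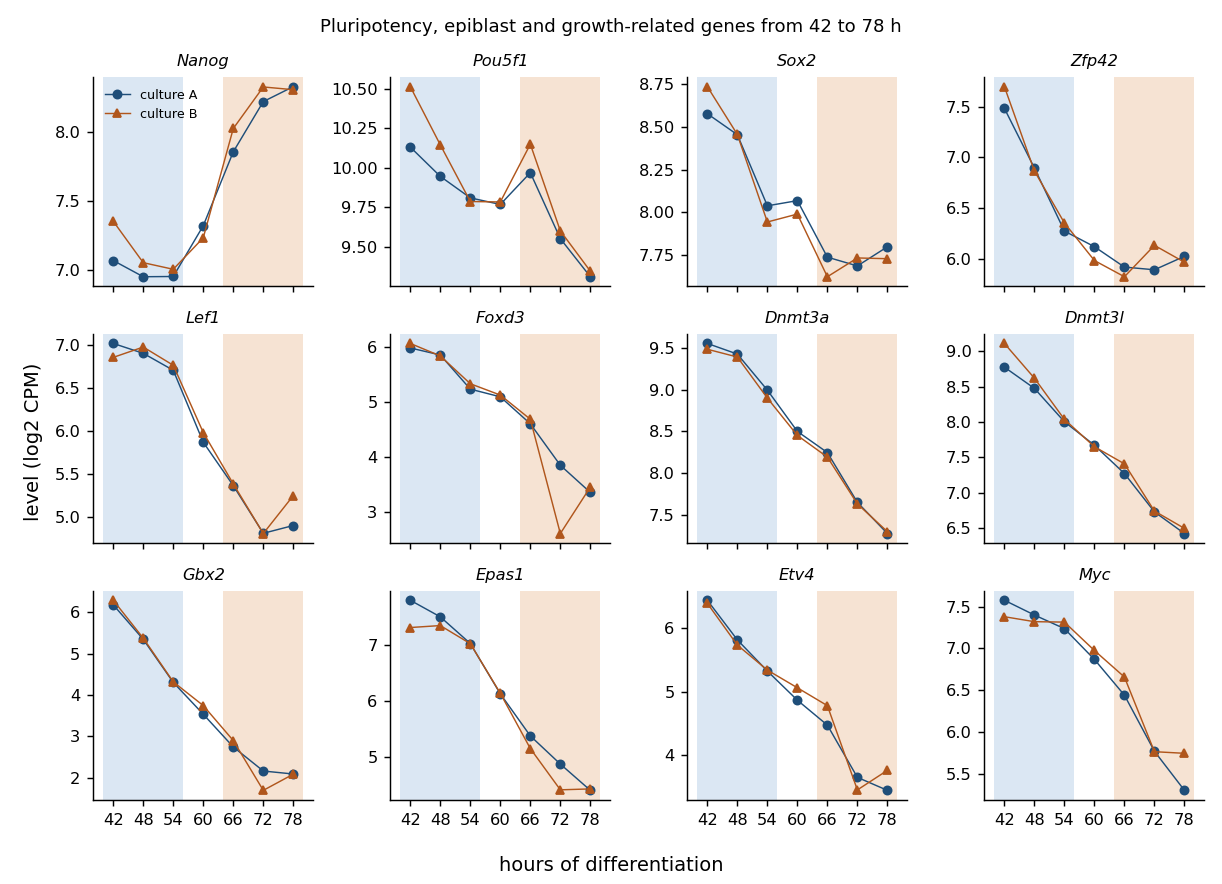
Levels (log2 CPM) of 12 pluripotency, epiblast and other genes at 42 to 78 h, drawn as in the plot of streak and signalling genes. Nanog rises in both cultures after 54 h, Pou5f1 overlaps between the shaded windows, and Lef1, Foxd3, Dnmt3a, Dnmt3l, Gbx2, Epas1, Etv4 and Myc fall through the 60 h libraries.

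The DNA methylation machinery was lower in the later window, with 7 of 11 genes down and 1 up (median -0.50). Dnmt3a, a de novo methyltransferase, went from 8.90, 9.41 and 9.56 to 7.28, 7.64 and 8.25 log2 CPM and fell by 1.58 (SE 0.06, adjusted p = 3.86e-18). Its cofactor Dnmt3l fell from 8.002, 8.55 and 9.11 to 6.42, 6.74 and 7.41, by 1.66 (SE 0.09, adjusted p = 1.54e-14). Neither gene overlapped between the windows. Dnmt3b, the other de novo enzyme, fell by 0.68 (SE 0.06) with overlap, and Tet1, which oxidizes methylated cytosine, by 1.16 (SE 0.16). The gene that rose was Gadd45b, a stress-response gene linked to demethylation, by 2.12 ± 0.13 from 26 to 65 reads a library.

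Among markers of the germ layers, endoderm genes gave rises and neuroectoderm genes calls in both directions. Of 11 endoderm genes 5 rose and 0 fell (median 1.43). Of 14 mesoderm genes 3 rose and 0 fell (median 0.36), but with voom weights 1 was higher and 2 were lower, and with log2(CPM + 1) 2 were also lower. The mesoderm rises were near the share of all genes that rose, 16.7%. Gata4, a GATA factor of endoderm and heart, rose by 1.51 ± 0.15, Trh, which encodes thyrotropin-releasing hormone, by 1.49 ± 0.18 and Krt19, a keratin of simple epithelia, by 2.57 ± 0.10. Pdgfra, a receptor of mesoderm and primitive endoderm, rose by 1.82 ± 0.25, a call that ended with voom weights (limma adjusted p = 0.000156). Neuroectoderm genes divided evenly, with 3 of 15 higher and 3 lower (median 0.18), near the 16.7% and 12.7% of all genes. Nes, an intermediate filament of neural progenitors, rose by 2.13 ± 0.10 and Irx3, a homeobox gene, by 2.02 ± 0.16, while Sox1, the earliest specific neural factor, fell by 1.04 (SE 0.16) and Sox21 by 2.52 (SE 0.18).

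**Figure D4:**
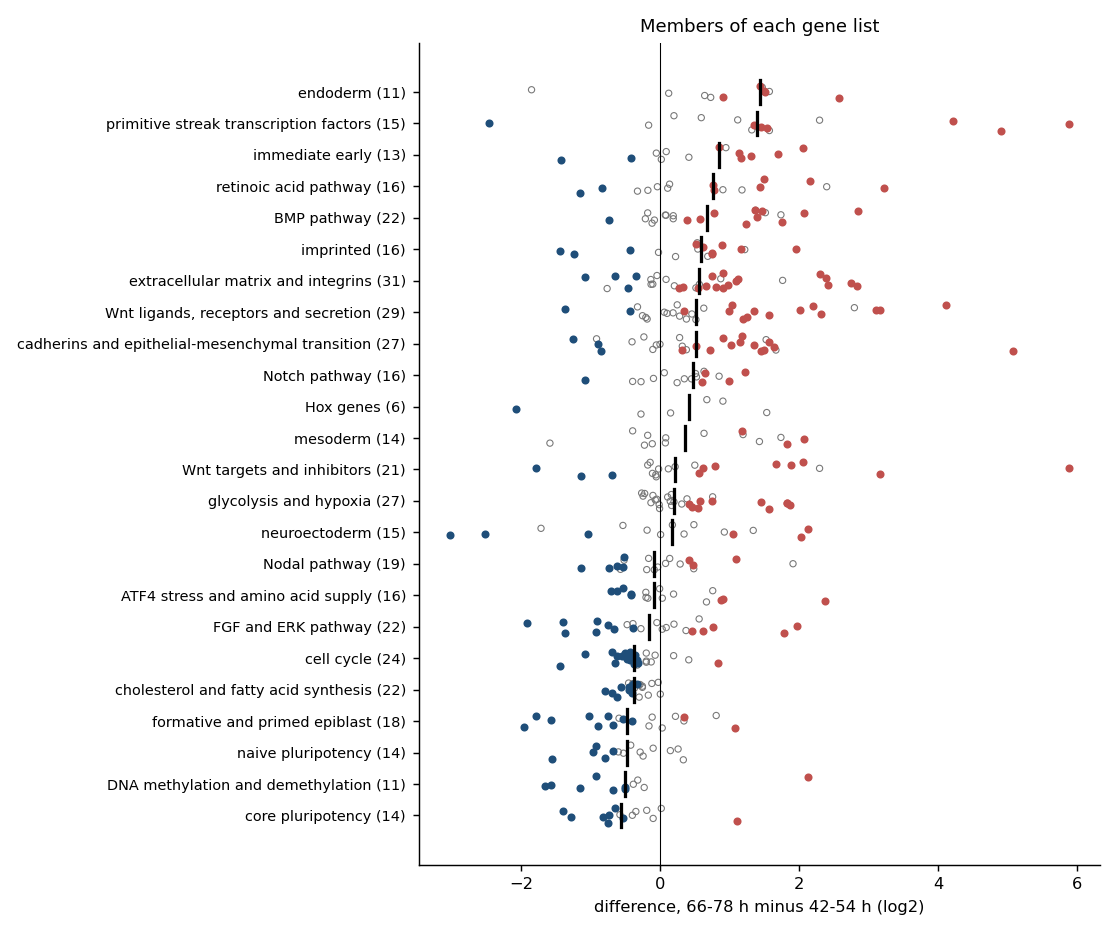
Later minus earlier difference (log2) of every member of 24 gene lists, with the number of genes in the files in parentheses; red points rose, blue points fell, open points were not called and the black bar is the list median, from 1.43 for endoderm to -0.56 for core pluripotency. Lists are ordered by their median, and genes can stand in more than 1 list.

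Keratins and a claudin rose, while the classical cadherins did not pass the test. Cdh1 (E-cadherin) was at 9.46 to 9.84 and then 9.57 to 9.79 log2 CPM (difference -0.06 ± 0.06, adjusted p = 0.431), and Cdh2 (N-cadherin) at 2.71 to 3.92 and then 3.16 to 3.83 (adjusted p = 0.989). The sign of both small differences changed without the normalization factors. Of 27 adhesion and epithelial-mesenchymal transition genes 13 rose and 3 fell (median 0.51). Those that rose included the keratins Krt18, by 1.56 ± 0.10, and Krt8, by 1.49 ± 0.07, and the tight junction gene Cldn3, by 1.35 ± 0.12. Pcdh7, a protocadherin, went from 0 to 4 reads to between 13 and 96 and rose by 5.08 ± 0.32 (adjusted p = 5.08e-13). Snai2, a relative of Snai1, fell by 1.26 (SE 0.20).

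Extracellular matrix genes rose in number, with 16 of 31 higher and 4 lower (median 0.56). Col1a1, a fibrillar collagen chain, went from -0.14, 1.22 and 2.003 to 3.07, 3.29 and 3.61 log2 CPM and rose by 2.29 ± 0.14 (adjusted p = 3.31e-13). Col4a5, a chain of basement membrane collagen, rose by 2.41 ± 0.22. The integrin subunits Itga3 and Itga6, laminin receptors, fell by 1.08 (SE 0.11) and 0.65 (SE 0.10). Without the normalization factors 1 gene of this list, in place of 4, was called lower, and Itga6 was not among the calls.

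Cell cycle genes were lower by small amounts, 15 of 24 against 1 higher (median -0.37). Ccne1, cyclin E1, fell by 1.08 (SE 0.07), Mcm5, a subunit of the replicative helicase, by 0.62 (SE 0.08) and Cdkn1c (p57), an imprinted inhibitor, by 1.44 (SE 0.17). Cdkn1a (p21), an inhibitor of cyclin-dependent kinases, rose by 0.83 ± 0.16, a call that ended without any of 10 libraries. Myc, a growth regulator, went from 7.24, 7.35 and 7.58 to 5.30, 5.77 and 6.66 log2 CPM and fell by 1.42 (SE 0.20, adjusted p = 6.79e-07). Without the normalization factors 11 cell cycle genes were called lower and 2 higher.

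Of 27 glycolysis and hypoxia genes 10 rose and 0 fell (median 0.20), and the larger rises were in transport and hypoxia-response genes. Slc2a3, a glucose transporter, went from 8.51, 8.85 and 9.30 to 9.997, 10.53 and 10.80 log2 CPM, a rise of 1.57 ± 0.10 (adjusted p = 6.9e-13). Vegfa, the endothelial growth factor, rose by 1.82 ± 0.11, Ndrg1 by 1.83 ± 0.11 and Adm, adrenomedullin, by 1.86 ± 0.23 with overlap. Ddit4, an inhibitor of mTORC1, rose by 1.46 ± 0.10. Epas1 (HIF-2 alpha), an oxygen-regulated transcription factor, went the other way, from 7.02, 7.32 and 7.79 to 4.42, 4.66 and 5.38 log2 CPM, a fall of 2.54 (SE 0.08, adjusted p = 5.43e-19).

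Sterol and fatty acid synthesis genes fell by small amounts, 10 of 22 with 0 higher (median -0.38), and 3 of 22 were called lower without the normalization factors. For 2 of the 22 all later libraries lay below all earlier ones, against 11.1% of all genes. Fasn, fatty acid synthase, fell by 0.80 (SE 0.12), with overlap. Genes of amino acid supply and the ATF4 stress response divided, with 3 of 16 higher and 5 lower (median -0.09), against 16.7% and 12.7% of all genes. Ddit3 (CHOP), a stress-induced factor, rose by 2.37 ± 0.14, while Slc7a5, an amino acid transporter, fell by 0.62 (SE 0.06) and Mthfd2, an enzyme of mitochondrial folate metabolism, by 0.71 (SE 0.06). Without the factors 2 of the 16 were called lower. Immediate early genes were mostly higher, 6 of 13 with 2 lower (median 0.85), and without the factors 1 was called lower. Those that rose included Fos by 2.05 ± 0.15, Jun by 1.14 ± 0.09 and Ier3 by 1.70 ± 0.14. Imprinted genes also gave calls in both directions, 7 of 16 higher and 3 lower (median 0.58), with Igf2, a fetal growth factor, up by 1.96 ± 0.12, Meg3 up by 0.89 ± 0.10 and Peg10, a retrotransposon-derived gene of the placenta, down by 1.24 (SE 0.10).

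Among all genes with at least 2 log2 CPM in their higher window and no overlap, the 12 largest rises, after T, included further genes outside the lists. Sept4, a septin, rose by 3.61 ± 0.33, Pde10a, a phosphodiesterase, by 3.54 ± 0.25 and Hrc, a calcium-binding protein of muscle, by 3.35 ± 0.20. Tagln (SM22 alpha), an actin-binding protein of smooth muscle, went from 1.72, 2.26 and 3.17 to 5.26, 5.41 and 5.82 log2 CPM, a rise of 3.11 ± 0.13 (adjusted p = 1.16e-16). Ccn1 (Cyr61), a matrix protein and target of YAP, rose from 1.81, 2.27 and 2.90 to 4.98, 5.17 and 5.74, by 3.01 ± 0.09 (adjusted p = 1.7e-19). Flt1, a VEGF receptor, rose by 2.87 ± 0.14, Vldlr, a lipoprotein and reelin receptor, by 3.10 ± 0.22, Efemp1, a matrix glycoprotein, by 2.87 ± 0.28 and Dach1, a transcriptional cofactor, by 2.86 ± 0.30.

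The largest fall under the same conditions was that of Gbx2 (chr1:89927956-89931179), a homeobox gene of ES cells and later of the midbrain-hindbrain boundary, from 4.30, 5.36 and 6.29 to 1.69, 2.12 and 2.90 log2 CPM. It fell by 3.03 (SE 0.17, adjusted p = 6.67e-14), and the drop of 1.93 from 42 to 54 h passed the threshold by itself (adjusted p = 3.85e-05). Ndnf, a secreted neurotrophic factor, fell by 2.93 (SE 0.29), Wt1, a zinc finger factor of kidney and gonad, by 2.25 (SE 0.27) and Inhbb, the beta-B subunit of activin and inhibin, by 2.13 (SE 0.17). Il10, a cytokine, fell by 2.45 (SE 0.38) and Insm1, a neuroendocrine zinc finger factor, by 2.29 (SE 0.34). Both, like other named genes listed at the end, lost the call without 1 of the time points. Dusp27, Enox1, Nkx6-3 and Capn3 completed the 12, with falls of between 2.18 and 2.30 on the log2 scale.

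Of 565 noncoding genes 47 rose and 30 fell, 13.63% in all, and of 13176 protein-coding genes 31.05% were called. The difference between these shares was not tested. The noncoding genes with the largest differences had few reads. Evx1os, which lies head to head with Evx1 and overlaps it (chr6:52308389-52314832, minus strand), went from 0 to 3 reads to between 3 and 25, a pooled ratio of 22.9 (interval 8.6 to 85.9). The strand setting of the counting is not given in the sources used here, so reads of Evx1os and Evx1, and likewise of Irx3os and Irx3, cannot be told apart in their overlap. Irx3os rose by 2.15 ± 0.39, a call that ended without any of 8 libraries. Gene 1700057H21Rik, a lincRNA, fell from 13 to 36 reads to 0 to 5 (pooled ratio 10.8, interval 6.15 to 20.8). Zfp469, which this annotation lists as a lincRNA, had 0 to 6 and then 6 to 20 reads (pooled ratio 6.79, interval 3.67 to 13.7), and Gm17501 had 0 to 6 and then 7 to 17 (4.64, interval 2.79 to 8.1). Gene 2310002F09Rik rose by 2.09 ± 0.21. Hotairm1, a noncoding gene of the HoxA cluster, stayed at 3 to 10 reads in both windows, with a difference of 0.15 ± 0.30 (adjusted p = 0.694).

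Markers of other cell types that an embryoid body could hold were at low levels. Summed over the 8 primitive and visceral endoderm markers in the files, they took 8.6 to 23.7 CPM in the earlier and 24.5 to 29.0 in the later libraries, with 3 higher and 0 lower, and over 7 trophoblast markers 8.21 to 13.9 and 16.6 to 34.1 CPM, with 4 higher and 0 lower. The trophoblast markers included Tfap2c, an AP-2 factor also of germ cells, which rose by 2.19 ± 0.14, and Gata3, which rose by 2.82 ± 0.37 from 0 to 3 reads to between 5 and 27. Fibroblast markers took 6.91 to 14.5 and 23.1 to 28.4 CPM over 7 genes, of which 4 rose, Col1a1 and Acta2 (smooth muscle actin, 0 to 5 and then 11 to 31 reads) among them. The 8 germ cell markers had the highest sum of these marker sets, 51.3 to 58.1 and then 53.3 to 71.1 CPM. Of the 8, 2 rose and 1, Dazl, fell by 0.88 (SE 0.15), a call that ended without the normalization factors (limma adjusted p = 0.000218). Among 3 blood markers 0 were called, and among 4 heart muscle markers 1 rose. The embryonic globins, Afp, Ttr and the 8 genes of the two-cell-like list were not among the genes of the files. The part of such cells in the rises of the matrix and endoderm genes was not tested.

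A small share of genes also changed inside the windows, and most 2-fold changes were part of the way along in the 60 h libraries. Inside the earlier window, from 42 to 54 h, 286 genes rose (2%) and 106 fell (0.741%), 2.74% in all, and inside the later window, from 66 to 78 h, 25 rose (0.175%) and 11 fell (0.0769%), 0.252% in all. These counts rest on 2 libraries against 2 and moved with single libraries, from 51 (without 54 h of culture A) to 629 (without 42 h of culture A) and from 4 (without 78 h of culture B) to 46. At 60 h the genes that rose at least 2-fold had covered a median of 62.83% of the way between the window means (quartiles 49.85% and 75.21%), and those that fell 52.27% (38.66% and 64.52%). Of the 1227 risers 1179 lay between the window means at 60 h, and of the 255 that fell 251 did. Members of the lists differed in this place. Rnf43 had covered 81.7% and Col1a1 81.4% of their rise at 60 h, Rspo3 71.9% and T 54.4%, while Ndrg1 had covered 19.9%, Crabp2 28.0% and Gadd45b 13.3%. Smad7 had completed 10.8% and Fasn 10.2% of their fall.

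**Figure D5:**
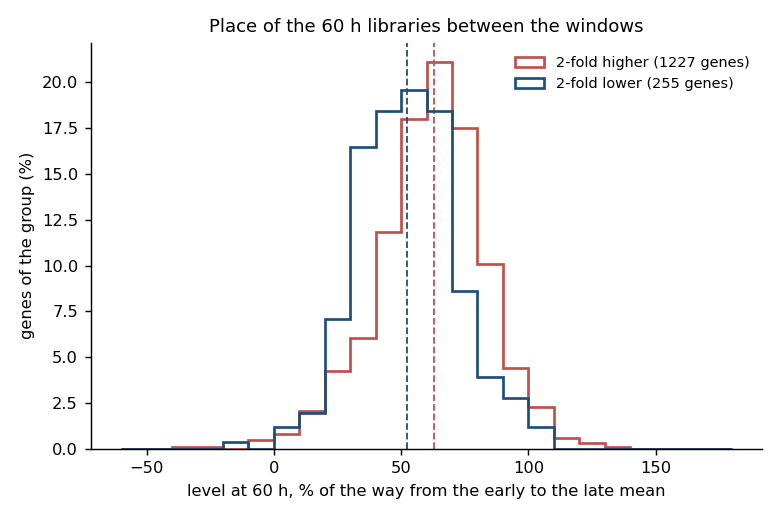
Distribution over genes of the place of the mean 60 h level between the earlier (0%) and later (100%) window means, as percent of genes in steps of 10 percentage points, for 1227 genes at least 2-fold higher (red) and 255 at least 2-fold lower (blue). Dashed lines mark the medians, 62.83% and 52.27%.

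Neighbouring steps of the same width are given for comparison. From the 18 to 30 h window to the 42 to 54 h window 2002 genes rose and 1322 fell (14% and 9.25%, 23.3% in all), between the windows around day 2 and day 3 29.4% changed, and from the 66 to 78 h window to the 90 to 102 h window 1137 rose and 862 fell (7.95% and 6.03%, 14% in all). The neighbouring comparisons share libraries with the transition, and the difference between these shares was not tested. T did not pass from the 18 to 30 h window (0.06, adjusted p = 0.863) and rose by a further 2.38 to the 90 to 102 h window, whereas Wnt3 had risen by 2.55 before and did not pass afterwards (0.69, adjusted p = 0.0234). Dnmt3b rose by 1.88 before, then fell by 0.68 and by a further 1.45. Of the 22 sterol and fatty acid synthesis genes 9 rose and 0 fell before and 20 fell afterwards, and of the 14 naive pluripotency genes 13 fell before and 7 rose afterwards.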

How the data were processed

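Per the labels and the methods, the authors used Trim Galore for trimming, TopHat2 for alignment (mm10) and HTSeq for counts per gene of GENCODE vM2, kept genes over 1 CPM in at least 2 libraries, then normalized the counts for library size with edgeR and applied voom. Tool versions are not given in the sources used here. The deposited values, 1 file a library, are log2 CPM with the voom offset of 0.5 reads, and they mapped back to whole reads to within 2.91e-08 of a read. The labels gave the time point and culture. Symbols, positions and biotypes came from GENCODE vM21 (GRCm38), in which 14177 identifiers were found and 119 were not.

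limma 3.58.1 in R 4.3.3 was fitted to the deposited log2 values of all 42 libraries with a factor of 21 time points (21 residual degrees of freedom, eBayes with a trend, no replicate block). The contrast was the mean of 66, 72 and 78 h minus the mean of 42, 48 and 54 h, with p-values adjusted by Benjamini-Hochberg over all 14296 genes and a threshold of 0.0001. A second fit with culture terms for each window tested whether the change differed between cultures (18 residual degrees of freedom). Changes inside the windows (54 minus 42 h, 78 minus 66 h) and to the neighbouring windows came from the first fit. The place at 60 h was described without a test. Low pooled reads were given as ratios of CPM with 95% exact binomial intervals, which cover counting error only.

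The genes named are the 12 largest rises and 12 largest falls past the threshold without overlap, at 2 log2 CPM or more in the higher window, the 6 noncoding genes with the largest differences past the threshold, members of the gene lists taken by size of difference or role, and Pou5f1, Otx2 and Hotairm1. The windows, the lists and these rules were chosen with earlier results of these data known, so list counts are descriptions. The scripts were tested on simulated data. Alternatives covered the replicate block, the samples in the fit, voom weights, normalization, offset, filter, threshold, and leaving out libraries, time points and cultures. Python 3.11.15 with pandas 2.3.3, scipy 1.17.1 and matplotlib 3.10.9 was also used. 1 gene of the named-gene rule is not reported here.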

Additional observations from a re-analysis of the deposited data

Results flagged for a closer look

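Single libraries stood apart from the other 5 of their window in 10 of 292 sets of 6 values examined, by Dixon's test for 6 values (gap over range above 0.625). Chance gives about 1 such set in 20, or 14.6 of 292, so the number is no larger than chance gives. Culture B at 42 h was lowest for Mixl1 in the earlier window (-0.53 against 0.42 to 0.75 log2 CPM, gap over range 0.745) and for Cdh1 (9.46 against 9.71 to 9.84, 0.645), and highest for Nanog (7.36 against 6.95 to 7.07, 0.708). Culture B at 72 h was lowest in the later window for Slc7a5 (7.28 against 7.60 to 7.69, 0.774), Hoxd13 (-3.37 against -1.39 to -0.58, 0.710) and Id3 (3.90 against 4.56 to 4.94, 0.635). In the earlier window Hes1 was lowest at 42 h in culture A (4.55 against 4.96 to 5.20, 0.642), Cdkn1a was highest at 54 h in culture B (5.19 against 4.75 to 4.91, 0.632), and Gata3 was lowest at 54 h in culture A (-5.52 against -3.52 to -3.01, 0.796). Cyp26a1 was lowest at 48 h in culture B (-5.82 against -3.93 to -3.03, 0.677). Gata3 and Cyp26a1 were counted with 0 to 3 reads there.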

How the results depend on the processing

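Of 143 named genes 130 passed the threshold, and none of these reversed in any of the 29 alternatives in which it was tested. The filter on low means removed some named genes, and of those kept 118 were unchanged and 1 gained a call. Counts of genes higher and lower at 66 to 78 h (2391 and 1815) stayed within 1.5 times under the replicate block (2567 and 2216), voom weights, median-of-ratios factors, log2(CPM + 1), the filter on low means and each library left out (2029 to 2260 and 1454 to 1724). They became 519 and 310 with only the 12 samples in the fit, 3841 and 3379 at an adjusted p below 0.01, 1227 and 255 with a 2-fold minimum, and 1500 and 1165 when the 42 h samples were taken out of their window. Genes lower became 889 without a normalization factor. In culture A alone and in culture B alone 0 genes passed in either direction, with 3633 higher and 3614 lower in A and 2590 and 1889 in B at an unadjusted p below 0.05. Genes changed inside the earlier window (392) became 591 with the replicate block and 2522 at 0.01, and ranged from 51 (without 54 h of culture A) to 629 (without 42 h of culture A) with 1 library left out; without 42 h of culture B they were 61 and without 54 h of culture B 63. Genes changed inside the later window (36) became 60 with the block, 66 with log2(CPM + 1) and 666 at 0.01, and ranged from 4 (without 78 h of culture B) to 46, with 6 to 9 when 66 h of either culture or 78 h of culture A was left out. Changes from the 18 to 30 h window became 5806 and to the 90 to 102 h window 4711 at 0.01. The median place at 60 h of genes 2-fold lower was 49.7% in culture B. No named gene with a call lost it in more than 10 of the 12 fits that left out a library other than Notum, and 7 lost it in at least 1 of these: Cdkn1a, Fst, Irx3os, Notum, Otx2, Snai1 and Wnt5a. Without 1 of the time points these 7 also lost the call, as did Adm, Cdx4, Dazl, Esrrb, Fasn, Gm17501 and Hoxd13. So did Il10, Insm1, Meg3, Msx2, Pdgfra, Snai2, Sox1 and Zfp469. With only the 12 samples in the fit 65 named genes lost the call. Genes with differences near 0 changed sign. Cdh2 was 0.003 with median-of-ratios factors, 0.157 without a factor, -0.113 (without 42 h of culture B) to 0.106 without a library, 0.036, 0.180 and 0.148 without 48, 54 and 78 h, and 0.059 in culture B. Cdh1 was 0.105 without a factor and 0.012 in culture B. Fgf5 was -0.038 to 0.096 without a library and -0.149 and -0.038 without 42 and 78 h. Hotairm1 was -0.089 (without 54 h of culture B) to 0.388 (without 54 h of culture A) without a library, -0.066 and -0.219 without 54 and 78 h, and -0.160 in culture A. The main fit did not pair the libraries by culture letter. In 7 of 15 pairs of time points the deviations between cultures had a correlation over 0.1 (median 0.089, from -0.163 to 0.527). Some deviation was thus shared between times. A culture offset constant over both windows only adds to the error of the main fit. Deviation shared within 1 window was not allowed for, and the main p-values can then be too small. Beyond the counts given above, the replicate block gave 1 glycolysis and hypoxia gene lower in place of 0 and brought Klf4 past the threshold. Voom weights ended the calls of Snai1, Wnt5a, Notum, Msx2, Fgfr3, Fst, Cdkn1a and Pdgfra, log2(CPM + 1) those of Evx1os, Zfp469, Snai1, Wnt5a, Notum and Msx2, and no normalization factor those of Notum, Fzd7, Otx2, Itga6 and Dazl. Values under about 3 reads depend on the offset, and 2 cultures limit how far any result extends beyond them.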
